A study of Mus musculus with 27 samples.

Results

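The genes described here are 10 regulators of the cell division cycle in mouse liver: the D-type cyclin genes Ccnd1, Ccnd2 and Ccnd3, the later cyclin genes Ccne1, Ccne2, Ccna2 and Ccnb1, the inhibitor genes Cdkn1a and Cdkn1b, and the proliferation marker gene Mki67. They were chosen by gene name, with their values in these data already known, and all 10 were among the 22552 genes of the RNA table. Whole livers came from male C57B/6J mice on 3 diets that differed in carbonyl iron, with 3 RNA libraries per diet. The standard-iron diet (SID) held 50 mg per kg and the high-iron diet (HID) 8.3 g per kg, both fed from 6 weeks of age. The low-iron diet (LID) held 0.9 mg per kg and was fed from 3 weeks of age, so low iron and an earlier start cannot be told apart. The sources used here do not give the age at which livers were taken.

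Cyclins are the activating partners of cyclin-dependent kinases (CDKs). D-type cyclins join CDK4 and CDK6 in G1 phase and start to inactivate the retinoblastoma protein, which frees E2F factors to switch on genes for DNA synthesis. E-type cyclins, cyclin A2 and cyclin B1 then act in turn at S phase entry, during DNA replication and at mitosis, while inhibitors of the Cip/Kip family bind and restrain the complexes. Hepatocytes of the adult liver are mostly quiescent, and cyclin D1 is known in the mouse for its rise when hepatocytes re-enter the cycle after partial hepatectomy.

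RNA levels are the authors' FPKM (fragment counts scaled for transcript length and library size), combined by them as 1 value per gene and diet. They carry no SD, and the only statistic on a difference is the p and adjusted p of the authors' deposited table. The test behind it is not named, so whether it measures the spread between mice is unknown. A gene was counted as called when that adjusted p was below 0.05, and as tested when its mean over the diets was at least 1 FPKM and its deposited adjusted p was below 1. Because the 10 genes were picked with these values in view, their calls are a description and not independent evidence. Changes are differences of log2(FPKM + 1), a scale that understates the changes of low genes. Over all tested genes, the median change against SID was −0.07 in HID and −0.13 in LID, and the median difference of HID from LID was 0.06. Summed over all listed genes, FPKM came to 467304 (SID), 485504 (HID) and 420623 (LID), and read depth is unknown. In whole liver, a change in the number of cells that express a gene and a change in RNA per cell cannot be told apart. Of the hepatocyte markers, Apoa1, an apolipoprotein gene, stood at 12243, 8346 and 8602 FPKM in SID, HID and LID. Alb, the albumin gene, was listed at 0 in every diet although it is a defining transcript of the organ. Serpina1a, the gene of an abundant hepatocyte protease inhibitor, was listed at 0 in SID and LID and at 2010 FPKM in HID. The authors' deposited table left it uncalled (adjusted p = 1) and gives both genes the status HIDATA, so a listed 0 can be a failed estimate that differs by diet, and the sums include such values. None of the 10 genes has that status.

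Over the 3 diets, 5 of the 10 genes had a mean of at least 1 FPKM (Ccnd1, Ccnd2, Ccnd3, Cdkn1a and Cdkn1b) and 5 lay below it. None was listed at 0 in any diet. In SID the highest was Ccnd3 at 10.8 FPKM, above 78.8% of the genes with a value above 0, and the lowest was Ccnb1 at 0.0316 FPKM, above 14.0% of them. In the plot of levels by diet, Ccnd1, Ccnd3 and both inhibitor genes lie above the 1 FPKM line in every diet. Ccnd2 lies on both sides of it, below 1 FPKM in SID and HID, and the genes of S phase and mitosis lie below it.

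**Figure D1:**
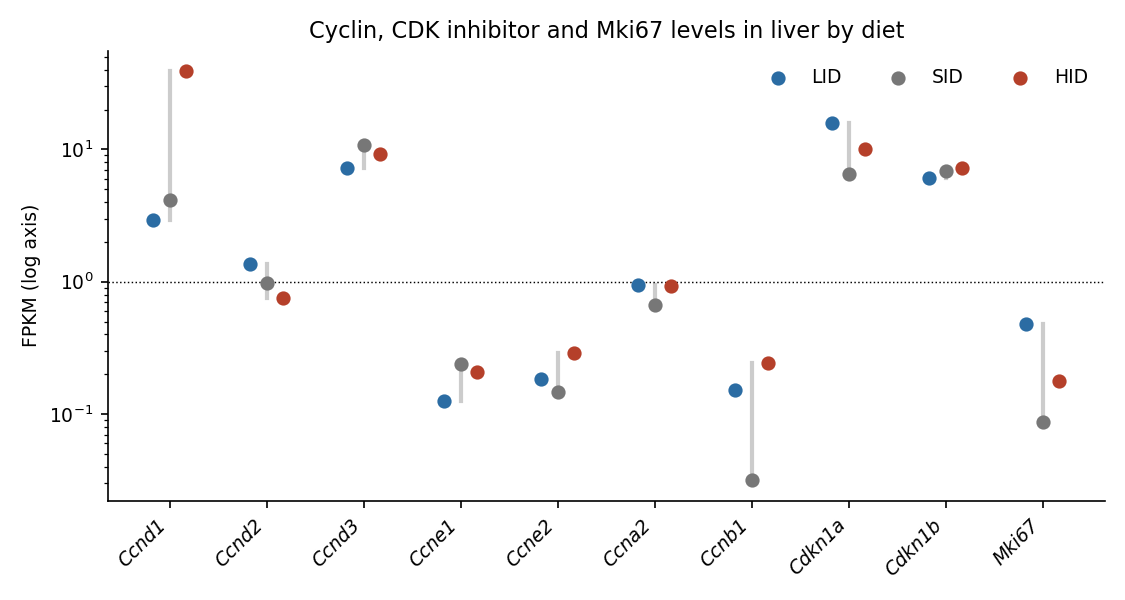
FPKM of each of the 10 genes (log axis) in LID (blue), SID (grey) and HID (red), 1 value per diet as combined by the authors. Grey bars span the lowest to the highest diet and the dotted line marks 1 FPKM. Ccnd1 in HID, at 38.9 FPKM, is the highest point, and Cdkn1a and Mki67 are highest in LID.

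Promoter windows from RefSeq (build GRCm38.p6, 250 bases before to 50 bases after a start site) matched 6 of the 10 genes with 8 windows. Those of Cdkn1a and Mki67 are printed here because the authors' deposited table called both in LID against SID. Capitals mark matches to a set of searched motifs on either strand: the p53 decamer (by name), the GC box GGGCGG, the CCAAT box CCAAT, the CHR element TTTGAA or TTCGAA, the CRE TGACGTCA and its core TGACG, the E-box CACGTG, the TATA box TATAAA and the E2F sites TTTCGCGC and TTTGGCGC. The core TGACG lies within the CRE, so each CRE also counts as a core. The p53 decamer was added after the Cdkn1a windows had been seen.
Cdkn1a, upstream start, chr17:29090729-29091028, plus strand: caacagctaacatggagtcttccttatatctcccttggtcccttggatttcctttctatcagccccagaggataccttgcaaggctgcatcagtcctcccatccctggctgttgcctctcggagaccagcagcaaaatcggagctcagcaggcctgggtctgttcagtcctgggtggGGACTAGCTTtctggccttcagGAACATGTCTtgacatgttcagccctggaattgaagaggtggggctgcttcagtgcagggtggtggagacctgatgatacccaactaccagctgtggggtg
Cdkn1a, downstream start, chr17:29093519-29093818, plus strand: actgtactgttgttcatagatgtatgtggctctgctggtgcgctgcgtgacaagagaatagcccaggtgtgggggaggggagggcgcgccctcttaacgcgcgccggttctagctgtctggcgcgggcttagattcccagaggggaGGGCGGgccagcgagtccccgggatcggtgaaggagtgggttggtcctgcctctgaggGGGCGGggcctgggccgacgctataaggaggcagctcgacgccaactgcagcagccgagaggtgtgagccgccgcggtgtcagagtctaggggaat
Mki67, chr7:135716330-135716629, minus strand: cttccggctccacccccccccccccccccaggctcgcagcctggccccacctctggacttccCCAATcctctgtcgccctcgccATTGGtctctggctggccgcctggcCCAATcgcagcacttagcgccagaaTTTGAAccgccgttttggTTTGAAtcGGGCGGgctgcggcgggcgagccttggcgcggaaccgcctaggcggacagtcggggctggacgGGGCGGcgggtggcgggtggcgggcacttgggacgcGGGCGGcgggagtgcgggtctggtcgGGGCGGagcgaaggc

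The upstream Cdkn1a window held 2 p53 decamers, ggactagctt starting at −73 and gaacatgtct starting at −51 from the start site, and no other searched motif. Of all 32851 windows in the table, 8.36% held at least 1 such decamer and 0.359% held 2 or more. The downstream Cdkn1a window held 2 GC boxes, at −104 and −46, a motif found in 35.7% of all windows. The Mki67 window held 3 CCAAT boxes (in 37.4% of all windows), 4 GC boxes and 2 copies of the CHR letters TTTGAA, at −116 and −98, a sequence found in 17.9% of all windows. CHR elements are known from promoters of genes expressed in G2 phase and mitosis. The Ccnb1 window, by comparison, held 2 CCAAT boxes and 3 GC boxes, and the Ccne1 window 4 GC boxes. These are matches of letters, and nothing in the RNA table measures binding at them.

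Ccnd1, the gene of cyclin D1, was the D-type cyclin that rose with high iron. It stood at 2.93 FPKM in LID, 4.16 in SID and 38.9 in HID. The HID value was thus far above the other two diets, which lay close together. Against SID the ratio was 9.37 and the log2 change 2.95 (3.02 relative to the median), and the authors' deposited table listed its adjusted p as 0. Against LID the ratio was 13.3 and the log2 change 3.34 (3.28 relative to the median), again with a listed adjusted p of 0. These changes ranked 16th from the highest among 9473 tested genes and 14th among 9490. In LID against SID Ccnd1 was not called, with a log2 change of −0.26 relative to the median (the authors' deposited table: adjusted p = 0.295). In level, Ccnd1 went from above 63.7% of genes in SID to above 91.5% in HID. Ccnd1 shares an end with its neighbour Oraov1 (now Lto1) in the GRCm38.p6 annotation, and Oraov1 stood at 3.07 FPKM in SID, 2.99 in HID and 1.77 in LID.

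The other D-type cyclin genes did not pass in any contrast. Ccnd3, which encodes cyclin D3, stood at 7.28 FPKM in LID, 10.8 in SID and 9.22 in HID, and the authors' deposited table gave adjusted p = 0.851 for HID and 0.359 for LID, each against SID. Ccnd2, which encodes cyclin D2, stood at 1.36 FPKM in LID, 0.979 in SID and 0.755 in HID. Its order across the diets was the reverse of that of Ccnd1. The contrast of HID with LID came nearest to the threshold for Ccnd2, with a ratio of 0.554, a log2 change of −0.43 and, from the authors' deposited table, adjusted p = 0.0916.

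Per length, the make-up of the D-type transcripts differed between the diets. Ccnd3 gave 67.9% of the summed D-type FPKM in SID and 62.9% in LID, while in HID Ccnd1 gave 79.6% and Ccnd3 18.9%. The share of Ccnd1 was 26.0% in SID and 25.3% in LID. The summed level was 16.0 FPKM in SID, 11.6 in LID and 48.9 in HID. Cdk4, the gene of a kinase partner of the D-type cyclins, stood at 15.0 FPKM in SID, 15.3 in HID and 13.6 in LID. Ccnd1 was thus 2.54 times the level of Cdk4 in HID and 0.276 times in SID.

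**Figure D2:**
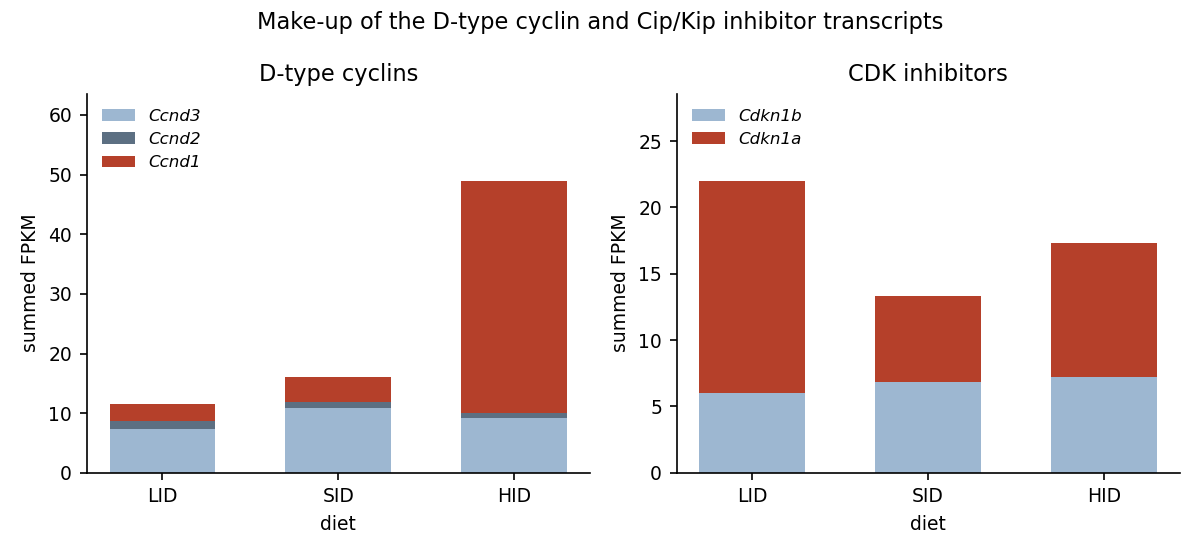
Stacked bars of FPKM per diet, with the D-type cyclin genes on the left and the inhibitor genes Cdkn1a and Cdkn1b on the right, 1 combined value per gene and diet. Ccnd1 makes up most of the HID bar (79.6%), and the inhibitor sum is highest in LID (22.0 FPKM) through Cdkn1a.

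The later cyclins stayed below 1 FPKM in every diet, and the authors' deposited table called none of them in any contrast. Ccna2, the gene of cyclin A2, acts in S phase and G2, and stood at 0.663 FPKM in SID, 0.931 in HID and 0.950 in LID. For Ccna2 the authors' deposited table gave adjusted p = 0.824 in HID and 0.817 in LID, each against SID. The E-type cyclin gene Ccne1 stood at 0.238 FPKM in SID, 0.207 in HID and 0.126 in LID. Ccne2, the other E-type cyclin gene, stood at 0.147, 0.290 and 0.184 FPKM in the same order. Ccnb1, the gene of the mitotic cyclin B1, stood at 0.0316 FPKM in SID, 0.243 in HID and 0.153 in LID. The SID value of Ccnb1 was thus the lowest of all 30 values of the 10 genes. The 3 genes Ccne1, Ccne2 and Ccnb1 carried a deposited adjusted p of 1 in all contrasts, which in this table marks genes left out of its adjustment. The unadjusted p of Ccnb1 in the authors' deposited table was 0.00785 in HID and 0.0664 in LID, each against SID. Ccnb1 has a transcribed pseudogene copy in the reference annotation, so its low value is uncertain. The 4 later cyclins together summed to 1.08 FPKM in SID, 1.67 in HID and 1.41 in LID.

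Of the inhibitors, Cdkn1a rose with low iron. It encodes p21, a p53 target that restrains CDK complexes. Cdkn1a stood at 6.49 FPKM in SID, 10.1 in HID and 15.9 in LID. SID was thus the lowest diet and LID the highest. In LID against SID the ratio was 2.46 and the log2 change 1.18 (1.31 relative to the median), and the authors' deposited table gave adjusted p = 1.4e-06. It had rank 56 from the highest among 9482 tested genes. In HID against SID its log2 change was 0.64 relative to the median and the authors' deposited table gave adjusted p = 0.117, and HID against LID gave 0.149 there. Neither was called.

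Cdkn1b, which encodes p27, the other Cip/Kip inhibitor, differed least between the diets. It stood at 6.85 FPKM in SID, 7.19 in HID and 6.05 in LID, a ratio of highest to lowest of 1.19. Its adjusted p was between 0.796 and 0.963 over the 3 contrasts in the authors' deposited table. The sign of its LID against SID change depended on scaling, at −0.16 as deposited and 0.04 with the columns rescaled to a common sum. Cdkn1a and Cdkn1b were near equal in SID, at a ratio of 0.947, and in LID Cdkn1a was 2.64 times Cdkn1b.

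Mki67 encodes Ki-67, a nuclear protein of cycling cells that is lost in quiescence. It stood at 0.0875 FPKM in SID, 0.179 in HID and 0.476 in LID. LID was thus the highest diet, and all levels were below the 1 FPKM minimum. In LID against SID the ratio was 5.44 and the log2(FPKM + 1) change 0.44, and the authors' deposited table gave an adjusted p of 8.1e-07. In HID against LID the ratio was 0.376 and the authors' deposited table gave adjusted p = 0.00654. HID against SID carried a deposited adjusted p of 1.

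Among the 5 tested genes, 1 was called higher (Ccnd1) and 0 lower in HID against SID, where 2.82% of all tested genes were called higher and 3.84% lower. In LID against SID 1 of 5 was called higher (Cdkn1a) and 0 lower, beside 1.57% and 3.31% of all tested genes. In HID against LID 1 of 5 was called higher (Ccnd1) and 0 lower, beside 2.10% and 1.84%. Without the filter on low values Mki67 was added, giving 2 of 7 higher in LID against SID beside 1.61% of all genes. In HID against LID without the filter 1 of 7 was higher (Ccnd1) and 1 lower (Mki67), beside 1.96% and 1.83%. With so few genes, and a choice made on these contrasts, nothing is read from those shares.

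**Figure D3:**
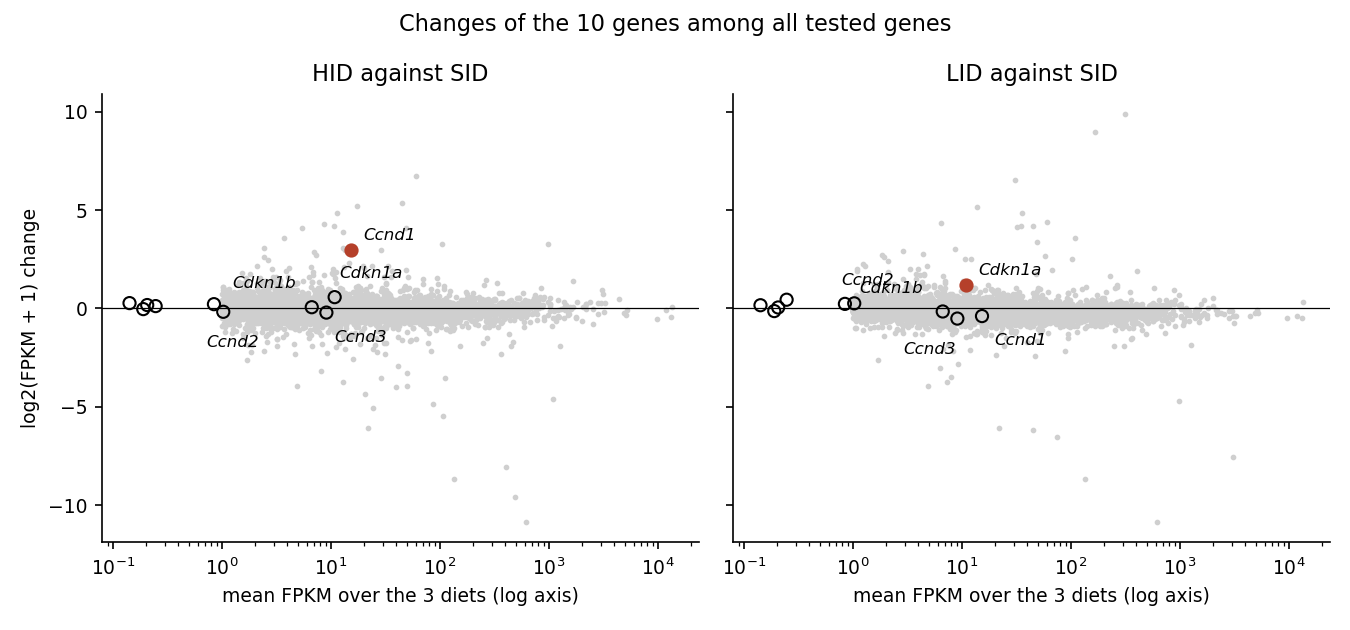
Change in log2(FPKM + 1) against the mean FPKM over the diets (log axis) for all tested genes (grey) and the 10 genes (circles, red where called), for HID against SID on the left and LID against SID on the right. Both panels use the same SID values. Ccnd1 stands clear of the grey band at 2.95 on the left, and Cdkn1a lies at 1.18 on the right.

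The genes whose pattern was nearest to that of Ccnd1 were sought among the other 630 genes called in HID against SID, by distance in the pair of changes against SID, over 3 diets. The nearest was Oasl1, an interferon-stimulated gene, at 3.16 FPKM in SID, 33.6 in HID and 2.46 in LID (distance 0.160 on the log2 scale). Cyp2a22, a cytochrome P450 gene, followed at 1.58, 17.9 and 1.57 FPKM in the same order (distance 0.391). Dbp, a clock-output transcription factor gene, came next (distance 0.562), then Id4 (0.575) and Id1 (0.645), which encode inhibitors of helix-loop-helix factors. The sample details used here hold no time of day of liver collection, so a difference between the diets in that time was not tested. A likeness over 3 values is a description only.

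The rest of the cell cycle machinery was read from 13 lists written with earlier results known, described by counts and medians with values for the genes named. Their counts stand beside the shares called among all tested genes. Those shares were 2.82% higher and 3.84% lower in HID against SID. They were 1.57% and 3.31% in LID against SID, and 2.10% and 1.84% in HID against LID. Of 12 tested other cyclin genes, 1 fell in HID against SID: Ccnf, the gene of cyclin F, an F-box protein, from 7.18 to 4.07 FPKM (adjusted p 0.00911 in the authors' deposited table). Ccni, the highest of that list, stood at 44.0 FPKM in SID, 50.4 in HID and 39.4 in LID. None of the 12 was called in LID against SID, and the list's median changes were 0.11 and −0.05, beside −0.07 and −0.13 over all tested genes. Of 12 tested CDK genes, 0 were called in HID against SID and 1 fell in LID against SID, Cdk18 (8.07 to 4.47 FPKM). The median changes of the CDK list were −0.20 and −0.15. Cdk6, the other partner of D-type cyclins, stood at 0.576 FPKM in SID, 0.797 in HID and 0.678 in LID.

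A further inhibitor gene rose with high iron. Cdkn2c, which encodes p18INK4c, an inhibitor of CDK4 and CDK6, was the 1 of 6 other inhibitor genes with a mean of at least 1 FPKM. Cdkn2c stood at 2.29 FPKM in LID, 2.59 in SID and 5.38 in HID, and the authors' deposited table gave adjusted p = 0.0229 for HID against SID and 0.0444 for HID against LID. HID was thus the high diet for Cdkn2c, as it was for Ccnd1.

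Downstream of the D-type cyclins, E2F and replication genes gave 0 higher calls and 2 lower in HID against SID. Over all tested genes 2.82% were called higher and 3.84% lower in that contrast, so nothing particular to these lists is read from those counts. In the retinoblastoma and E2F list, 0 of 11 tested genes rose and 1 fell: E2f8, an E2F family repressor, from 1.66 to 0.728 FPKM (adjusted p 0.00319 in the authors' deposited table). The list's median change in HID against SID was −0.19. In the DNA replication list, 0 of 17 rose and 1 fell: Mcm10, a replication initiation factor gene, from 9.59 to 2.73 FPKM (adjusted p 6.7e-13 in the authors' deposited table). Mcm10 was above Mcm2, at 0.393 FPKM in SID, by a wide margin, while Pcna, the sliding clamp gene, stood at 19.0 FPKM in SID, 19.7 in HID and 20.4 in LID. The replication list's median changes were 0.04 in HID against SID and 0.00 in LID against SID, where none of either list was called.

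**Figure D4:**
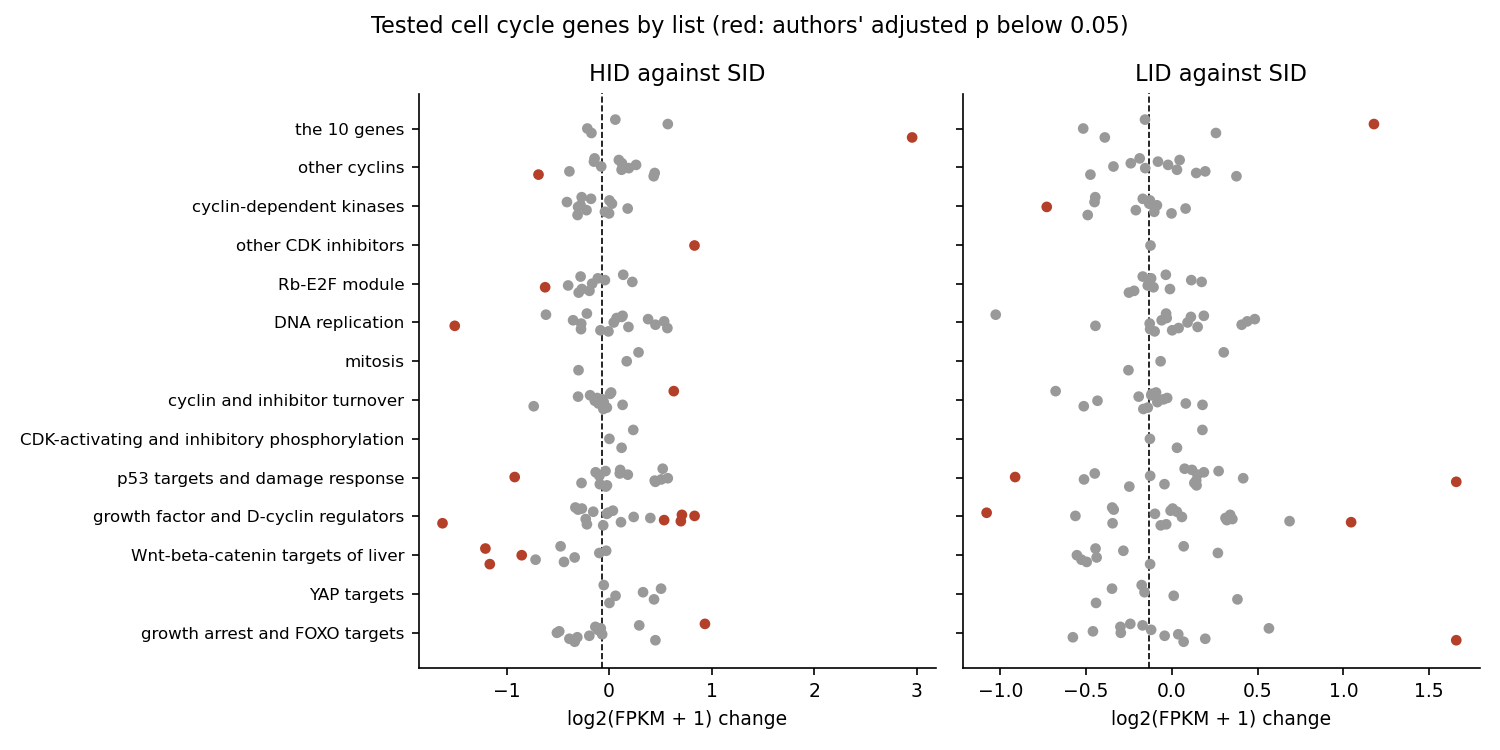
Change in log2(FPKM + 1) of each tested gene by list (rows), for HID against SID on the left and LID against SID on the right, with called genes in red and the median of all tested genes as a dashed line. The horizontal scales of the panels differ. Called genes are few in each list, and Ccnd1 lies farthest to the right in HID, at 2.95.

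Mitotic genes were mostly too low to be tested. Of the 30 genes of that list, 27 had a mean below 1 FPKM, and none of the other 3 (Bub3, Cenpa and Mad2l1) was called in any contrast. Bub3, a spindle checkpoint gene, stood at 9.18 FPKM in SID, 7.28 in HID and 7.54 in LID. As a count of values only, 27 of 30 stood higher in HID than in SID and 26 of 30 higher in LID than in SID, beside 45.8% and 42.8% of all 17636 genes above 0 in some diet. Among genes with a mean below 1 FPKM those shares were 52.9% and 58.2%. Both counts rest on the same SID values, so they do not support each other. In HID against LID 10 of 30 stood higher in HID, beside 53.5% of all genes and 44.1% of those with a mean below 1 FPKM. The list's median level was 0.0718 FPKM in SID, 0.147 in HID and 0.154 in LID. Examples are Prc1, a spindle midzone gene, at 0.0570, 0.260 and 0.228 FPKM in SID, HID and LID, and Top2a, the topoisomerase of dividing cells, at 0.0949, 0.186 and 0.300. Without the filter, Nek2, a centrosome kinase gene, was the 1 gene of this list called, lower in HID than in SID (0.671 to 0.208 FPKM, adjusted p 0.0156 in the authors' deposited table). The share of all genes called in that setting is not given here, so nothing is read from the call of Nek2.

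**Figure D5:**
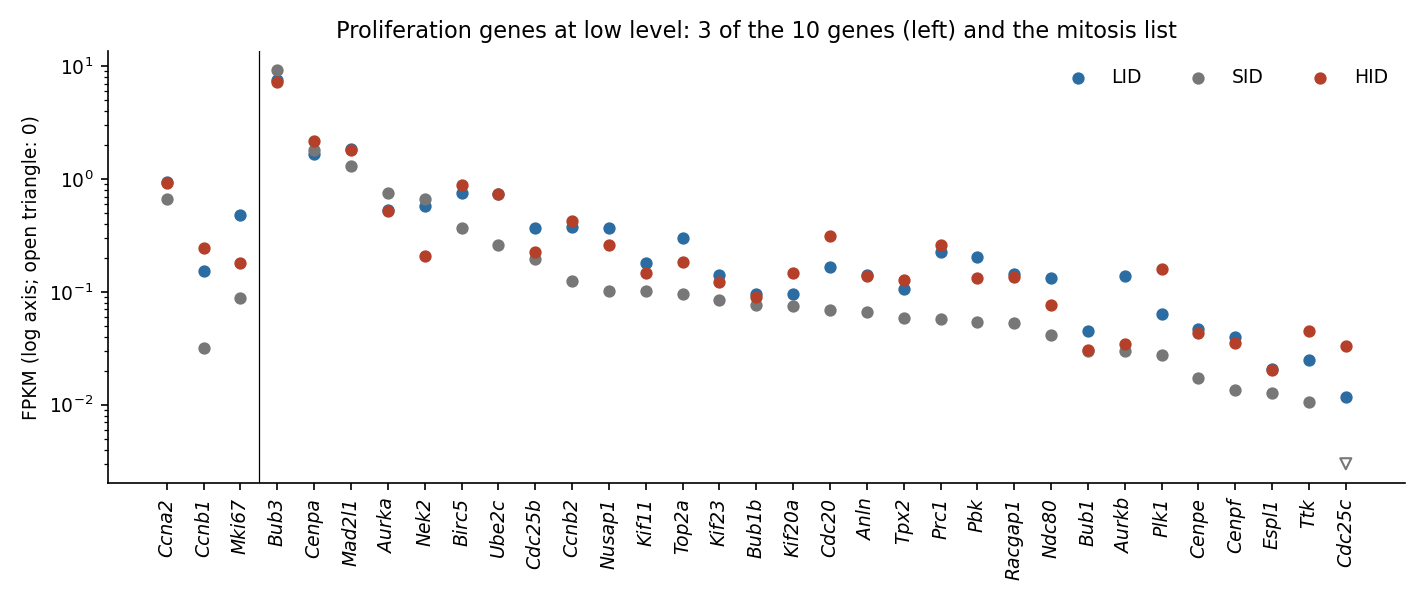
FPKM (log axis) of Ccna2, Ccnb1 and Mki67 (left of the line) and of the 30 genes of the mitosis list, in LID (blue), SID (grey) and HID (red). The open triangle marks Cdc25c, listed at 0 in SID. SID is the lowest point for most of the low genes, and Mki67 spans 0.0875 to 0.476 FPKM.

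Among 18 tested growth factor and regulator genes that act on D-type cyclins, 4 rose and 1 fell in HID against SID. Over all tested genes 2.82% were called higher and 3.84% lower in that contrast. Hgf, the gene of hepatocyte growth factor, went from 0.764 to 1.56 FPKM and Klf10 from 7.65 to 14.4. Klf6 went from 1.66 to 3.36 FPKM and Fos, a subunit of AP-1, from 1.96 to 3.80. Hgf passed the 1 FPKM minimum only with its HID value counted, so its call is no support. The authors' deposited table gave adjusted p = 0.0458 for Hgf and 0.0440 for Fos, both near the threshold. Egfr, the epidermal growth factor receptor gene, fell from 64.7 to 20.3 FPKM (adjusted p 4.2e-07 in the authors' deposited table). The list's median change was −0.02. Myc, a growth regulator gene, stood at 3.68 FPKM in SID and 3.64 in HID and was not called (adjusted p = 0.997, the authors' deposited table). In LID against SID Myc fell to 1.21 FPKM (adjusted p 0.00186 there) and Egr1, an immediate-early gene, rose from 9.11 to 19.9 FPKM. In HID against LID 2 of the 18 were higher (Klf10 and Myc) and 3 lower (Egfr, Egr1 and Irs2), beside 2.10% and 1.84%. The liver targets of beta-catenin had 0 of 9 tested genes higher and 3 lower in HID against SID, beside 2.82% and 3.84%. Those were Cyp1a2 (159 to 70.5 FPKM), Slc1a2 (11.1 to 4.24) and Oat (132 to 72.5), all perivenous liver genes. Glul and Cyp2e1 of that list were not called (adjusted p 0.0905 and 0.733 in the authors' deposited table). The list's median change was −0.47 in HID against SID and −0.44 in LID against SID, beside −0.07 and −0.13 over all tested genes. In LID against SID none of the list was called. Axin2, a general target, stood at 0.827 FPKM in SID and 0.863 in HID. None of the 6 tested YAP targets was called against SID, and Cyr61 was higher in HID than in LID (5.87 against 2.80 FPKM).

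Genes of cyclin turnover and of CDK phosphorylation gave few calls. Of 14 tested turnover genes, 1 rose in HID against SID: Usp2, a deubiquitinase known in human cells to stabilise cyclin D1, at 0.293 FPKM in LID, 1.07 in SID and 2.199 in HID (adjusted p 0.0305 for HID against SID and 0.000789 for HID against LID in the authors' deposited table). Usp2 passed the 1 FPKM minimum only with its HID value counted, so its call is no support. Any link between Usp2 and the level of Ccnd1 was not tested. None of 3 tested phosphorylation genes was called. Wee1, which encodes an inhibitory kinase of CDK1, lay below the minimum and was called without the filter, at 1.40 FPKM in HID against 0.518 in SID (adjusted p 0.00266 in the authors' deposited table). The share of all genes called without the filter is not given here for that contrast, so nothing is read from the call of Wee1.

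Of 16 tested p53 target and damage response genes other than Cdkn1a, 1 rose and 1 fell in LID against SID, beside 1.57% higher and 3.31% lower over all tested genes. Counts this small say nothing particular to the list, and the list's median change was 0.12, beside −0.13 over all tested genes. Btg2, an antiproliferative gene also counted in the growth arrest list, rose from 3.21 to 12.3 FPKM (adjusted p 2.7e-12 in the authors' deposited table). Gadd45g fell from 58.5 to 30.6 FPKM. Mdm2, which encodes the negative regulator of p53, stood at 6.06 FPKM in SID and 5.47 in LID, and Ccng1 (10.4 and 11.6) and Bax (15.1 and 14.6) were also not called. Trp53 itself stood at 4.76 FPKM in SID, 5.20 in HID and 5.24 in LID. In HID against SID 0 of the 16 rose and 1 fell, Gadd45g again (30.4 FPKM), beside 2.82% higher and 3.84% lower over all tested genes. In the growth arrest list, 1 of 13 rose in each diet against SID: Txnip in HID (36.6 to 70.8 FPKM) and Btg2 in LID. The shares called higher over all tested genes were 2.82% in HID and 1.57% in LID, each against SID.

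Markers of other liver cells moved in the same contrasts as these genes. Their counts stand beside 2.82% higher and 3.84% lower over all tested genes in HID against SID. In LID against SID those shares were 1.57% and 3.31%. In LID against SID, where Mki67 and Cdkn1a were called, the summed level of 9 neutrophil and immature myeloid markers went from 6.90 FPKM in SID to 196 in LID and 21.4 in HID. Of these, 5 were tested in LID against SID and called higher, but Ngp, Camp and Retnlg passed the 1 FPKM minimum only through their LID level, so their count is no support. S100a8 and S100a9, calprotectin genes above the minimum in every diet, rose in both LID and HID. S100a8 stood at 2.38 FPKM in SID, 9.15 in HID and 96.7 in LID (adjusted p 0.0034 for HID against SID in the authors' deposited table), and S100a9 at 3.80, 10.9 and 82.7 (adjusted p 0.00232 there). Ngp, a granule gene of immature neutrophils, went from 0.0119 FPKM in SID to 3.499 in LID. Mpo, a defining granule gene, was listed at 0 in SID and HID and at 0.289 FPKM in LID. Of 6 tested erythroid markers 3 rose in LID against SID, 1 of them tested only through its LID level, and 1 fell, with a summed level of 742 FPKM in SID, 762 in HID and 1062 in LID. In HID against SID 1 of 5 rose and 1 fell: Alas2, the erythroid heme synthesis gene, which stood at 44.0 FPKM in SID, 8.71 in HID, 27.4 in LID, and was called lower in both diets. Of 7 Kupffer cell markers 4 rose in LID and 2 in HID, with sums of 74.7 FPKM in SID, 122 in HID and 125 in LID. Among 4 tested cholangiocyte and progenitor markers 2 rose in HID against SID, where Ccnd1 was called. Those were Krt7 (0.596 to 1.75 FPKM, with SID below the minimum) and Spp1 (25.1 to 49.0). Krt7 passed the minimum only with its HID value counted, so its call is no support. The other members of that list included Epcam at 0.800 FPKM in SID and 0.785 in HID. Of 7 tested endothelial markers 1 rose in HID and 2 in LID against SID, none of 7 stellate and fibroblast markers was called, and 0 of 8 hepatocyte markers was called. Lymphocyte markers had 1 tested gene, not called. The part of these cell types in the values of the 10 genes was not tested.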

How the data were processed

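RNA-seq of liver gave 9 libraries, 3 per diet. The submitters' processing notes name TopHat, Cufflinks 2.2.1 and build mm9. The RNA table the authors deposited holds 1 FPKM per gene and diet, a unit taken from the tool and the values. Per the file headers its columns are LFE, NORM and GFE, and GFE was taken as the high-iron diet by elimination. The deposited p-values and adjusted p-values of 3 contrasts come from a test that the sources used here do not name. They matched Benjamini-Hochberg values computed over the 34481 tests of all contrasts pooled (largest gap 2.7e-06). Values per library, methylation scores and proteins were not used here, so the planned comparison of the D-type proteins was not made. The series design gives 3 mice per group, and strand use in counting is not stated.

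Computed here, in Python 3.11.15 with pandas 2.3.3, were log2(FPKM + 1) changes, ratios, shares, list counts and motif matches, with functions tested on simulated data. Of 295 list genes 292 were in the table. The members and lists were chosen with earlier results of these data known. The rule named all 10 genes, up to 6 called genes per list and contrast, or the 2 highest where none was called, and the 5 genes nearest to Ccnd1. Some genes it named are not described. Cdk4, Cdk6, Mcm2, Pcna, Prc1, Top2a, Nek2, Wee1, Axin2, Glul, Cyp2e1, Mdm2, Ccng1, Bax, Trp53, Alb, Serpina1a, Mpo and Epcam, with Myc in HID against SID, were named after their values were seen. Alternatives were other pseudocounts, scalings, thresholds, adjustment and no filter.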

Additional observations from a re-analysis of the deposited data

How the results depend on the processing

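The count of called genes among the 10 stayed at 1 in each contrast with an adjusted p below 0.01 and with adjustment within the contrast. Without the filter on low values it was 2 in LID against SID and 2 in HID against LID, through Mki67, and with an adjusted p below 0.1 it was 2 in HID against LID, through Ccnd2. The changes of Ccnd1 (HID against SID and against LID) and Cdkn1a (LID against SID) kept their direction and stayed within 1.5 times of their values under 2 other pseudocounts, rescaling and centring. Changes of genes below 1 FPKM rose with a smaller pseudocount: that of Mki67 in LID against SID was 1.62 with a pseudocount of 0.1. Of the 30 changes of the 10 genes, 18 moved by over 1.5 times with a pseudocount of 0.1, 18 with 0.01, 15 with centring and 10 with rescaling, mostly small changes of genes that were not called. Rescaling moved the median of tested genes from −0.13 to 0.05 in LID against SID and from 0.06 to −0.07 in HID against LID. It turned the sign of Cdkn1b in LID against SID, and centring turned that of Ccne1 in HID against SID (−0.04 to 0.03). The share of Ccnd1 among D-type cyclins is the same under rescaling by construction, because all genes of a diet are multiplied by the same factor. It is therefore no check of that share. No paired analysis was possible because the table gives 1 combined value per diet, and leaving out a mouse could not be run for the same reason. Read depth is unknown, which limits what the lowest values can show.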
